A study of Morchella importuna with 4 samples.

Results

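Mitochondrial carriers and the machinery that imports proteins into mitochondria were followed in the mycelia of Morchella importuna, a cultivated morel, at the sclerotial initiation (SI) stage. The genes were chosen by the words of their deposited annotation alone: descriptions naming a mitochondrial carrier, mitochondrial import, a mitochondrial membrane protein, a translocase, a Tim or Tom subunit or porin, with nuclear pore, aquaporin, ribosomal and respiratory chain wording left out. Of 11599 genes in the deposited table, 59 matched and 5 were dropped, which left 54. They held 33 genes of the mitochondrial carrier family, 8 of the outer membrane, 2 small Tim chaperones, 3 of the Tim17/22 family, 3 of the presequence translocase and its motor, 1 import gene whose subunit was not named and 1 inner membrane metalloprotease. The remaining 3 matched by words that do not name a mitochondrial protein, namely 2 subunits of the Sec61 translocase of the endoplasmic reticulum (ER) and a gene annotated as a cephalosporin C regulator.

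A single strain was cultured in the dark on potato dextrose agar (PDA) for 4 days at 20 °C, and no group was treated or mutated. SII samples came from the dense sclerotial area within a radius of 2 cm of the plate centre, where the cells are swollen and bead-like, and SIO samples from the sparse hyphal area outside it. Mycelia of 2 plates were pooled in each sample, and each area had 2 samples. The areas were taken from the same plates, but whether equally numbered samples of the areas share plates is not stated. No marker genes for the cell types, independent of these libraries, were used here to check the areas.

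Most mitochondrial proteins are made in the cytosol and enter the organelle as precursors. The TOM complex of the outer membrane receives them through the receptors Tom20, Tom22 and Tom70, small Tim proteins chaperone hydrophobic precursors across the intermembrane space, and the translocases of the inner membrane insert them or pull them into the matrix. Carriers of the SLC25 family then exchange nucleotides, phosphate, organic acids, amino acids and cofactors across the inner membrane, while porin lets small solutes through the outer one.

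Expression is given as FPKM, a fragment count scaled to the library total and to the gene's length. Comparisons of levels between genes of unlike length are approximate. Whole reads recovered from the table totalled between 23108142 and 27992918 per library. The areas were compared by limma on log2(FPKM + 1) over 8906 genes. A gene was called where its Benjamini-Hochberg adjusted p was under 0.01 and its log2 fold change reached 1 in either direction. In bulk tissue, fewer cells of a type and less RNA per cell cannot be told apart. Whether samples of an area came from independent culture rounds is not stated, so p-values measure only the spread between these libraries.

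All 54 genes passed the filter on low values (FPKM of at least 1 in at least 2 libraries). In SII 5 were upregulated and 4 downregulated, together 9 genes or 16.7%, against 22.4% of all genes tested (10.3% higher and 12.2% lower). Without the Sec61 and regulator genes, 3 of 51 were upregulated and 4 downregulated (13.7%), with a median log2 fold change of -0.18. Differences of at least 2-fold were seen in 21 of the 54 (38.9%, against 39.1% of all genes tested), of which 12 missed the threshold on the adjusted p. The median log2 fold change of the 54 was -0.12, beside -0.11 for all genes tested, and the median of its absolute size was 0.75, beside 0.77. Among all genes tested 914 were called higher and 1084 lower in SII, a split that turned to 981 and 743 with median-ratio scaling and to 953 and 855 with quantile normalization. For the 54 genes the split of 5 and 4 became 7 and 3 with median-ratio scaling and 6 and 4 with quantile normalization. The libraries of the areas did not overlap for 38 of the 54 (15 with SII above and 23 with SIO above), or 70.4%, against a background of 79.6% (35.6% with SII above and 43.9% with SIO above). All 9 calls were lost without SIO replicate 1 or without SIO replicate 2, where 0 members were called and 17 had an unadjusted p under 0.05 by limma. They were also lost with no filter on low values, where 25 did. Called members numbered 18 without SII replicate 1 and 23 without SII replicate 2, where the lone SII library is taken to vary like the SIO libraries.

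**Figure D1:**
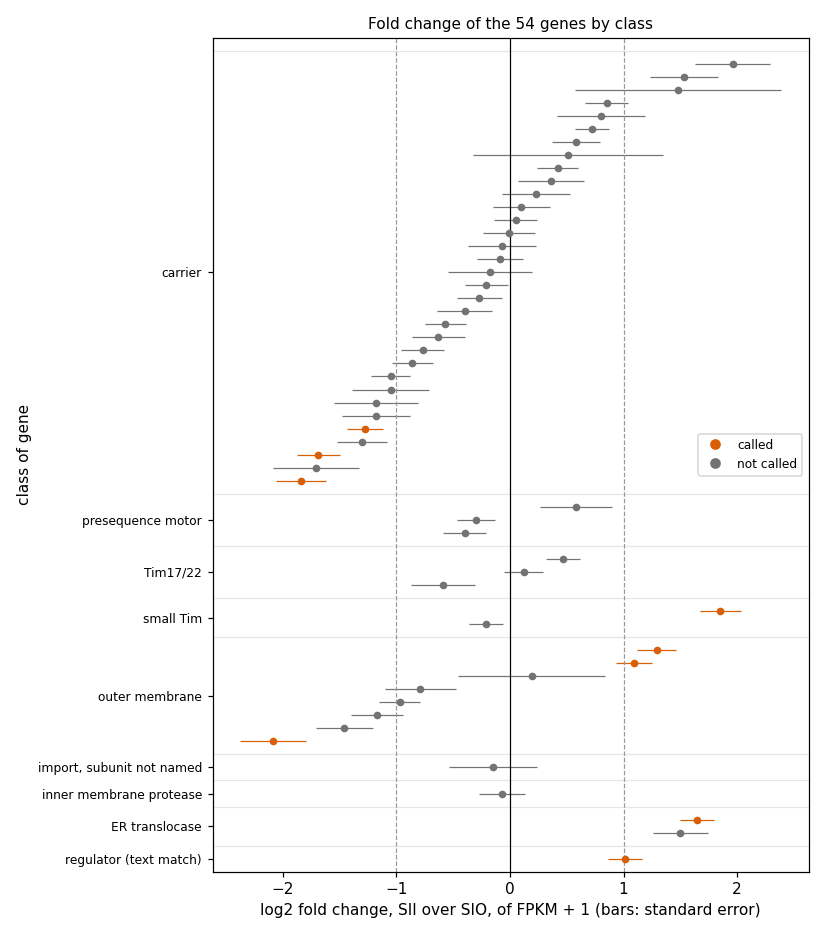
Log2 fold change (SII over SIO, of FPKM + 1) of the 54 genes, grouped by class, with bars for the standard error of the limma fit and dashed lines at a 2-fold change. Called genes are orange, and the outer membrane class spans from -2.09 to 1.29 while the presequence and Tim17/22 genes stay within -0.59 and 0.58.

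Among the import receptor genes of the outer membrane only JGI 535794, described as Tom22, had a higher mean in SII. The others, Tom70, Tom20, JGI 531369 and JGI 505605, had lower means. Tom70, the receptor for hydrophobic precursors such as the carriers (JGI 573427), was at 21.9 and 37.1 FPKM in the SII libraries and at 122 and 127 FPKM in the SIO libraries. Both SII libraries lay far below both SIO libraries, and the gene was downregulated (means ± SD, n = 2 each, 29.5 ± 10.8 for SII and 124 ± 3.88 for SIO, log2 fold change -2.09 ± 0.29 SE, limma adjusted p = 0.00736). The call was lost with median-ratio scaling (adjusted p = 0.0112) and with the trend of fold changes with gene length removed (adjusted p = 0.0127), the latter chosen after seeing the data.

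Tom22, the central receptor that organises the TOM complex, was the description of 2 genes. Only JGI 531369 has a homologue named as Tom22, and that of JGI 535794 is a hypothetical protein. JGI 535794 was upregulated, with 104 and 86.0 FPKM in SII and 37.2 and 39.1 FPKM in SIO (2.49-fold in mean, log2 fold change 1.29 ± 0.17 SE, limma adjusted p = 0.00685). JGI 531369, similar to tom-22, was at 37.9 and 21.8 FPKM in SII and at 56.5 and 45.5 FPKM in SIO, a log2 fold change of -0.79 that was not called (limma adjusted p = 0.0976). The call of JGI 535794 was lost with replicate number as a block (limma adjusted p = 0.0102). The summed level of both genes was 142 and 108 FPKM in SII and 93.7 and 84.6 FPKM in SIO. In SIO JGI 531369 had the higher FPKM in both libraries, and in SII JGI 535794 did.

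Tom20, the receptor for precursors with a presequence (JGI 533263, annotated by its older name MAS20), stood at 35.2 and 51.8 FPKM in SII and at 93.5 and 102 FPKM in SIO. The areas did not overlap, but the log2 fold change of -1.17 missed the threshold (standard error 0.23, limma adjusted p = 0.0172). A further gene annotated only as an import receptor subunit, JGI 505605, had nearly equal replicates, 4.48 and 4.51 FPKM in SII and 9.72 and 9.76 FPKM in SIO, with a log2 fold change of -0.97 and a limma adjusted p of 0.0138.

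The order of the receptor levels thus differed between the areas. In SIO Tom70 stood highest, followed by Tom20, then JGI 531369 and JGI 535794, and none of the neighbouring genes overlapped between libraries. In SII JGI 535794 stood highest in both libraries and Tom20 next in the second library only, while Tom70 and JGI 531369 overlapped, at means of 29.5 and 29.9 FPKM. Ratios of FPKM taken within a library, which multiplying a library by a constant cannot alter, show the same for Tom70 and Tom20 against JGI 535794. JGI 535794 over Tom70 was 4.76 and 2.32 in SII and 0.306 and 0.308 in SIO. Over Tom20 it was 2.96 and 1.66 in SII and 0.398 and 0.385 in SIO. These pairs were chosen after their values were seen, and with 2 libraries per area an exact permutation test cannot give a two-sided p below 0.33.

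Porin, the voltage-dependent anion channel of the outer membrane, was the description of 2 genes that diverged. Only JGI 579974 has a homologue named as porin. That of JGI 350895 is a hypothetical protein, so whether both encode this channel is not settled here. The abundant one, JGI 579974, was at 817 and 737 FPKM in SII and at 358 and 369 FPKM in SIO. It was upregulated, 2.14-fold in mean (means ± SD, n = 2 each, 777 ± 56.7 for SII and 363 ± 8.04 for SIO, log2 fold change 1.09 ± 0.16 SE, limma adjusted p = 0.00813). The other, JGI 350895, was at 25.3 and 38.8 FPKM in SII and at 87.0 and 88.6 FPKM in SIO, a log2 fold change of -1.46 that just missed the threshold (standard error 0.25, limma adjusted p = 0.0114). Within a library the first exceeded the second 32.3-fold and 19.0-fold in SII but 4.11-fold and 4.16-fold in SIO. How reads were split between similar genes is not given in the sources used here. With replicate number as a block the call of JGI 579974 was lost (limma adjusted p = 0.0192), while JGI 350895 was called lower (limma adjusted p = 0.00984). The call of JGI 579974 was also lost with the length trend removed (limma adjusted p = 0.0117), chosen after seeing the data.

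Sam50 (JGI 534806), the core of the machinery that inserts beta-barrel proteins such as porin into the outer membrane, varied most between replicates of this class. It was at 51.6 and 13.4 FPKM in SII, on either side of the SIO libraries at 25.7 and 20.7 FPKM, and no difference was detected (log2 fold change 0.19 ± 0.65 SE, limma adjusted p = 0.828).

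**Figure D2:**
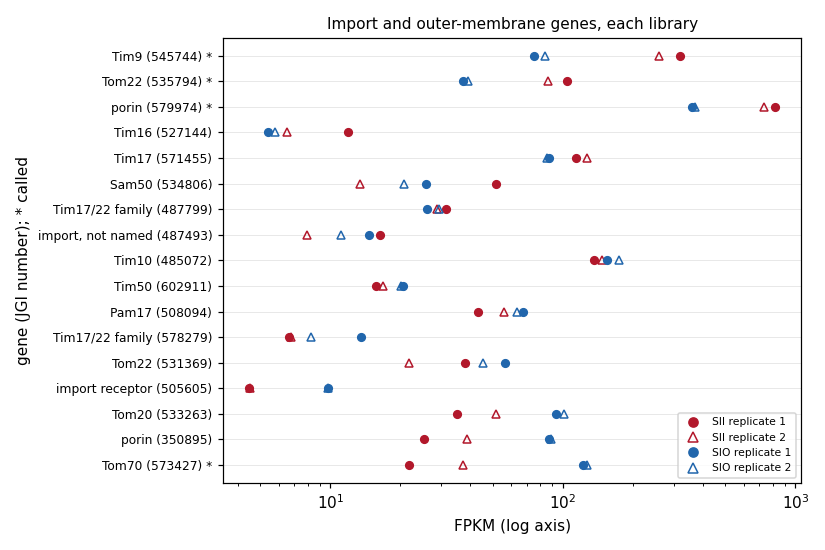
FPKM (log axis) of the 17 import and outer membrane genes in each of the 4 libraries, ordered by log2 fold change, with SII in red, SIO in blue, replicate 1 filled, replicate 2 open, and called genes starred. Tom70 and JGI 350895, described as porin, lie lower in both SII libraries. Tim9, JGI 535794 (described as Tom22) and the porin JGI 579974 lie higher.

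The small Tim proteins Tim9 and Tim10 work as a mixed hexamer that carries hydrophobic precursors through the intermembrane space. Tim9 (JGI 545744) was at 318 and 260 FPKM in SII and at 74.8 and 83.9 FPKM in SIO. It was upregulated (means ± SD, n = 2 each, 289 ± 41.4 for SII and 79.4 ± 6.40 for SIO, log2 fold change 1.85 ± 0.18 SE, limma adjusted p = 0.00417), the largest log2 fold change among the 5 upregulated genes in this fit. Tim10 (JGI 485072) did not follow, with 136 and 147 FPKM in SII and 155 and 174 FPKM in SIO (log2 fold change -0.21 ± 0.15 SE, limma adjusted p = 0.294). The ratio of Tim9 to Tim10 within a library was 2.34 and 1.77 in SII and 0.482 and 0.483 in SIO. Tim9 thus had the higher FPKM in SII and Tim10 in SIO. The log2 of this ratio differed by 2.07 between the areas, with an SD of 0.29 in SII and less than 0.01 in SIO.

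**Figure D3:**
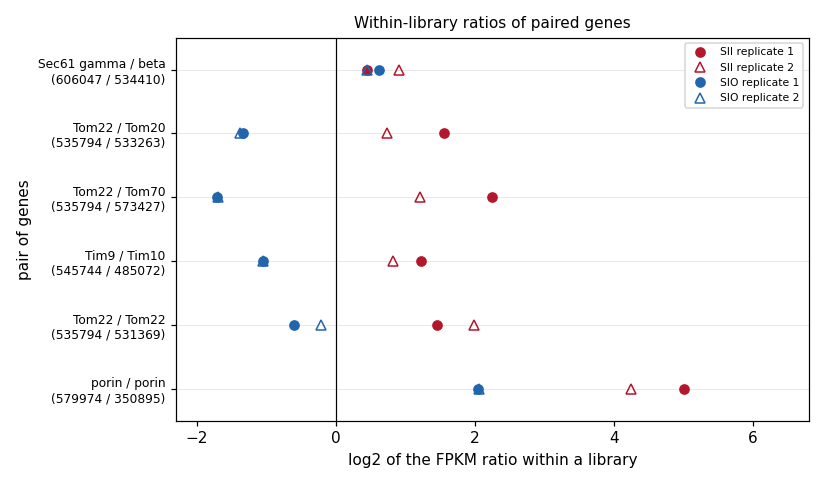
Log2 of the ratio of FPKM of paired genes within each library, with SII in red, SIO in blue, replicate 1 filled and replicate 2 open. The ratio of Tim9 to Tim10 (2.34 and 1.77 in SII, 0.482 and 0.483 in SIO) changes sign on this scale. So do those of JGI 535794, described as Tom22, to Tom70, to Tom20 and to JGI 531369, also described as Tom22. The porin ratio shifts without changing sign, and the Sec61 ratio overlaps between the areas.

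Of the 3 genes of the Tim17/22 family, which form the channels of the inner membrane translocases, 0 were called by limma or limma-voom, and 1 had an unadjusted p under 0.05. Limma called 22.4% of all genes tested, so 0 of 3 cannot be read as particular to this family. Tim17 (JGI 571455) was the most abundant, at 114 and 127 FPKM in SII and 87.5 and 85.4 FPKM in SIO (log2 fold change 0.47, limma adjusted p = 0.0530). JGI 487799 and JGI 578279, annotated only to the family, had log2 fold changes of 0.12 and -0.59. The latter was measured from 75 to 181 reads per library. Of the presequence translocase and its motor, Tim50 (JGI 602911), the inner membrane receptor for presequences, was at 15.8 and 16.9 FPKM in SII and at 20.6 and 20.0 FPKM in SIO. Its log2 fold change was -0.30 (limma adjusted p = 0.199). Pam17 (JGI 508094) and Tim16 (JGI 527144), parts of the import motor, had log2 fold changes of -0.40 and 0.58 with limma adjusted p of 0.142 and 0.189. The import gene without a named subunit, JGI 487493, and the metalloprotease, JGI 564175, had log2 fold changes of -0.15 and -0.07, whose direction turned under another scaling.

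Of the 33 carrier genes, 0 were upregulated and 3 downregulated by limma, together 9.09%, against 22.4% of all genes tested (10.3% higher and 12.2% lower). Limma gave 5 carriers higher in SII an unadjusted p under 0.05, and limma-voom on recovered reads also called 0 higher. Some other fits did call carriers higher. These were JGI 555242 with median-ratio scaling, with quantile normalization and with replicate number as a block, and JGI 482848 with that block. The median log2 fold change of the carriers was -0.18, in a range from -1.84 to 1.96. Levels were spread widely, with 5 carriers above 100 FPKM and 19 below 30 FPKM on average over the libraries. A single gene, JGI 552057, whose annotation names no substrate, held 32.3% and 41.5% of the summed carrier FPKM in SII and 34.4% and 38.3% in SIO. It was at 765 and 947 FPKM in SII and at 942 and 1021 FPKM in SIO, and the areas overlapped (log2 fold change -0.21 ± 0.19 SE, limma adjusted p = 0.419). The next, JGI 494017, also without a named substrate, was at 469 and 332 FPKM in SII and at 645 and 576 FPKM in SIO (log2 fold change -0.63, limma adjusted p = 0.0805). The third, JGI 532197, lay in the other direction, at 156 and 202 FPKM in SII and 105 and 91.6 FPKM in SIO (log2 fold change 0.85, limma adjusted p = 0.0238).

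The SII replicates of the 3 downregulated carriers lay 1.04-fold to 1.39-fold apart. JGI 576430, a carrier with a calcium-binding EF-hand, the build of carriers that calcium regulates from the intermembrane side, was at 5.82 and 8.08 FPKM in SII and at 25.8 and 28.6 FPKM in SIO (log2 fold change -1.84 ± 0.22 SE, limma adjusted p = 0.00600). Both SII libraries lay below both SIO libraries, with 304 and 393 reads against 1519 and 1657. Its call was lost with the length trend removed (adjusted p = 0.0109), chosen after seeing the data. JGI 539097, annotated as a mitochondrial tricarboxylate transporter, the type that exports citrate, was at 15.2 and 19.6 FPKM in SII and at 57.6 and 58.2 FPKM in SIO (means ± SD, n = 2 each, 17.4 ± 3.10 for SII and 57.9 ± 0.466 for SIO, log2 fold change -1.69 ± 0.19 SE, limma adjusted p = 0.00541). JGI 533488, a carrier protein with no substrate named, was at 18.9 and 19.7 FPKM in SII and at 46.1 and 50.2 FPKM in SIO. Its log2 fold change was -1.28 ± 0.16 SE (limma adjusted p = 0.00623). This call was lost with replicate number as a block (limma adjusted p = 0.0101).

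A further 9 carriers differed by at least 2-fold without being called, 3 with a higher mean in SII and 6 with a higher mean in SIO. The areas overlapped for 1 of the 3, JGI 571940, at 14.4 and 1.55 FPKM in SII and 1.71 and 0.867 FPKM in SIO. By log2 fold change the largest was JGI 555242, annotated as solute carrier family 25 member 39, which in mammals imports glutathione into mitochondria. It was at 27.4 and 15.0 FPKM in SII and at 4.78 and 4.19 FPKM in SIO, 4.73-fold higher in mean (log2 fold change 1.96 ± 0.33 SE, limma adjusted p = 0.0114). It passed with median-ratio scaling (adjusted p = 0.00847), with quantile normalization (adjusted p = 0.00886) and with replicate number as a block (limma adjusted p = 0.0072). JGI 482848, a putative homologue of Leu5, which in Saccharomyces cerevisiae is needed for coenzyme A in the matrix, was at 43.4 and 27.6 FPKM in SII and at 13.3 and 9.69 FPKM in SIO (log2 fold change 1.53 ± 0.30 SE, limma adjusted p = 0.0169). On the other side stood JGI 533561, without a named substrate, at 11.3 and 24.0 FPKM in SII and 55.2 and 58.0 FPKM in SIO (log2 fold change -1.71 ± 0.38 SE, limma adjusted p = 0.0214). In these 3 the areas did not overlap, and the SII replicates lay 1.57-fold to 2.12-fold apart.

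The other carriers with a homologue named in their annotation were not called. The carrier whose homologue is named a mitochondrial DNA-binding protein, JGI 531481, was at 62.9 and 118 FPKM in SII and at 190 and 170 FPKM in SIO (log2 fold change -1.05, limma adjusted p = 0.0575). JGI 8707, similar to arg-13, which in Neurospora crassa carries basic amino acids for arginine metabolism, was at 12.2 and 9.40 FPKM in SII and at 7.19 and 6.53 FPKM in SIO (log2 fold change 0.58, limma adjusted p = 0.0835). JGI 494548, a 2-oxodicarboxylate carrier, differed by 0.36 on the log2 scale, and JGI 551503, similar to the peroxisomal membrane protein Pmp47, by 0.10. The areas overlapped for both. JGI 533904, similar to an uncharacterized carrier, was at 8.66 and 18.1 FPKM in SII and at 29.7 and 29.8 FPKM in SIO (log2 fold change -1.18, limma adjusted p = 0.0541). The gene annotated as phosphate carrier protein 2, JGI 64604, had its highest and its lowest value in SII, 147 and 26.6 FPKM, around the SIO libraries at 51.8 and 36.9 FPKM (log2 fold change 0.51 ± 0.84 SE, limma adjusted p = 0.643).

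**Figure D4:**
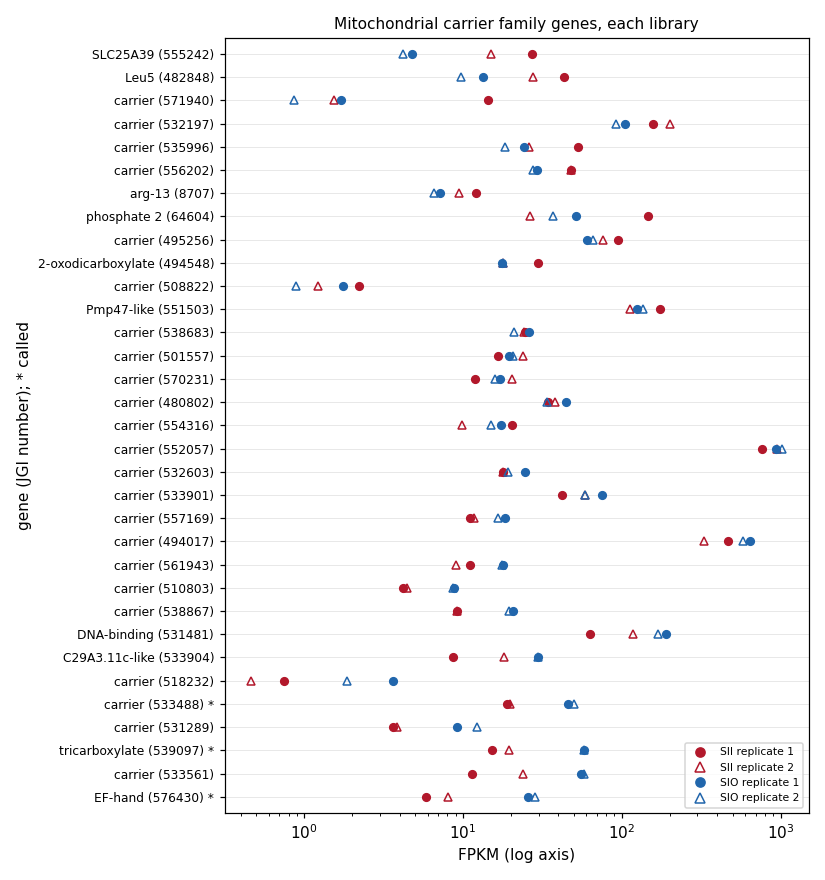
FPKM (log axis) of the 33 carrier family genes in each of the 4 libraries, ordered by log2 fold change, with SII in red, SIO in blue, replicate 1 filled, replicate 2 open, and called genes starred. JGI 552057 stands apart at 765 to 1021 FPKM with overlapping areas, and JGI 571940 and JGI 64604 show SII libraries far from each other.

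The SII libraries differed from each other more than the SIO libraries did. Of the 54 genes, 8 lay more than 2-fold apart between the SII replicates (14.8%, against 16.7% of all genes tested) and 0 between the SIO replicates (against 1.86%). Of these 8, 6 were higher in SII replicate 1. The widest gap, in a gene chosen after its values were seen, was in the carrier JGI 571940, at 14.4 and 1.55 FPKM in SII (210 and 21 reads) and at 1.71 and 0.867 FPKM in SIO. On the log2 scale, SII replicate 2 lay nearer than replicate 1 to the SIO mean for 44 of the 54 genes. The same held for 19 of the 21 that differed at least 2-fold. These shares were not computed over all genes tested, so they cannot be read as particular to these genes. The part of the gap between the SII replicates in the results was not tested. Few reads stood behind some of the values, as 8 of the 54 genes had under 100 reads in at least 1 library, and 13 had over 1000 in each.

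Sec61 gamma (JGI 606047) and beta (JGI 534410) are the small subunits of the channel through which nascent proteins enter the ER. Sec61 gamma was at 608 and 556 FPKM in SII and at 191 and 178 FPKM in SIO, and was upregulated (means ± SD, n = 2 each, 582 ± 36.8 for SII and 185 ± 8.97 for SIO, log2 fold change 1.65 ± 0.15 SE, limma adjusted p = 0.00399). Sec61 beta was at 444 and 296 FPKM in SII and at 124 and 131 FPKM in SIO, 2.90-fold higher in mean, and just missed the threshold (limma adjusted p = 0.0102) and passed with median-ratio scaling (adjusted p = 0.00790). Their ratio within a library was 1.37 and 1.88 in SII and 1.54 and 1.36 in SIO, so the areas overlapped in the ratio though not in the levels. The gene annotated as a cephalosporin C regulator, JGI 570723, which matched only through the letters of its name, was at 83.9 and 74.9 FPKM in SII and 39.9 and 37.6 FPKM in SIO (log2 fold change 1.01 ± 0.15 SE, limma adjusted p = 0.00913). Its call was lost with replicate number as a block (limma adjusted p = 0.0162) and without the trend of variance with expression (limma adjusted p = 0.0114). It was also lost without SII replicate 1, where the log2 fold change was 0.93.

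Partners of import and transport outside the 54 genes were taken from a list of annotation words. It matched 11 genes, 2 of them by words that do not name a mitochondrial protein. These are an Hsp98/Hsp104-type heat shock gene (JGI 486803) and the ER vesicle protein Erv14 (JGI 536751, log2 fold change 0.77, limma adjusted p = 0.0133). By limma 2 were upregulated and 0 downregulated in SII, with 3 of the lower ones at an unadjusted p under 0.05 and 0 called lower by limma-voom. The 2 called of 11 were 18.2%, against 22.4% of all genes tested. Without JGI 486803 and JGI 536751, 1 of 9 was called (11.1%). Besides JGI 486803 (log2 fold change 2.65, limma adjusted p = 0.00205) the upregulated one was the Hsp10-like chaperonin JGI 501639, the lid of the chamber in which imported proteins fold. It was at 218 and 213 FPKM in SII and at 48.9 and 53.0 FPKM in SIO (log2 fold change 2.06 ± 0.14 SE, limma adjusted p = 0.00263). The mitochondrial Hsp70 gene JGI 559262, whose type drives the import motor, was at 43.9 and 40.3 FPKM in SII and at 30.4 and 31.5 FPKM in SIO (log2 fold change 0.43, limma adjusted p = 0.0774).

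The UPF0041 family, the domain of the mitochondrial pyruvate carrier, which lies outside the SLC25 family, gave another pair with opposite signs. JGI 533738 was at 248 and 336 FPKM in SII and at 432 and 445 FPKM in SIO (log2 fold change -0.60, limma adjusted p = 0.0674). JGI 533282 was at 293 and 242 FPKM in SII and at 159 and 161 FPKM in SIO (log2 fold change 0.73, limma adjusted p = 0.0234). Neither was called, and their ratio was 0.847 and 1.39 in SII and 2.71 and 2.77 in SIO. Prohibitin-1 (JGI 488087), of the inner membrane scaffold, was at 91.7 and 80.6 FPKM in SII and at 146 and 141 FPKM in SIO (log2 fold change -0.73, limma adjusted p = 0.0186). Prohibitin-2 (JGI 539078), its partner in the same complex, overlapped between the areas, at 75.5 and 22.4 FPKM in SII and 77.2 and 61.0 FPKM in SIO (log2 fold change -0.72, limma adjusted p = 0.367).

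Of 48 tested genes of the respiratory chain and ATP synthase, 4 were upregulated and 3 downregulated in SII, with a median log2 fold change of 0.10. Of 18 mitochondrial ribosomal protein genes, 2 were upregulated and 1 downregulated, with a median of -0.19. These counts were 14.6% and 16.7%, beside 16.7% for the 54 genes and 22.4% for all genes tested, and whether the lists differ was not tested.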

How the data were processed

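FPKM per library were used as the authors deposited them. Per the submitters' processing notes TopHat2 2.1.0 was used, and the authors mapped cleaned paired-end reads with it to the M. importuna genome. The program that computed FPKM, and how it treated reads shared by similar genes, are not given in the sources used here. From the authors' deposited signal values (mean scaled read counts per area) and their FPKM, whole reads per library were recovered (100% of values within 0.01 of a whole number), totalling 24841181 and 23108142 for SII and 27992918 and 27579489 for SIO. The SIO means imply a further library, which entered no comparison. The deposited fold changes and p-values of the authors were not used.

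The fit took every gene that reached an FPKM of 1 in 2 or more libraries and used limma 3.58.1 in R 4.3.3 on log2(FPKM + 1), comparing the areas with no covariate, with moderated variances that follow mean expression. The pseudocount understates the change of low genes. The script was tested on simulated data. Figures used matplotlib 3.10.9. The rule for named genes took every called one, in each class the 3 with the highest mean FPKM and the 2 with the largest change, and, among partners, every called one and the 3 with the highest mean FPKM. The other genes named in the report were chosen after their values were seen. Members and lists were chosen with earlier results of these data known. Alternatives tried were a smaller pseudocount, a stricter filter and none, median-ratio scaling, quantile normalization, blocking on replicate number, omission of single libraries, no trend, a looser threshold and limma-voom on recovered reads. A fit with the length trend removed was added after seeing the data. JGI numbers matched 0 genes of the RefSeq table, so names are those of the deposited annotation and no sequence is shown.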

Additional observations from a re-analysis of the deposited data

How the results depend on the processing

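Of the 5 members called higher and 4 called lower in SII, 0 changed direction under any alternative. With no filter limma called 0 members higher, 0 lower and 0 genes in all, with 25 members and 5305 genes at an unadjusted p under 0.05. Limma-voom on recovered reads called 10 members, with all 9 calls among them. At an adjusted p under 0.05 there were 8 higher, 10 lower and 3262 genes in all. With the length trend removed, added after seeing the data, 2 members were called lower. Leaving out each library in turn gave 0 to 12 members called higher, 0 to 11 lower and 79 to 3911 genes in all. The median log2 fold change of all tested genes was -0.11, -0.02 with median-ratio scaling and -0.01 with quantile normalization. Direction under each alternative was listed only for the genes named by the rule, not for the other uncalled members. Among those listed it turned only in genes that were not called. JGI 487493 had a log2 fold change of 0.03 with quantile normalization and of -0.63 to 0.33 in leave-one-out fits. JGI 564175 had 0.02 with median-ratio scaling, 0.07 with quantile normalization and -0.24 to 0.10 in leave-one-out fits. JGI 487799 had -0.07 with the length trend removed. The cause of these changes was not tested. With the replicate number as a replicate block, 8 members were called, 4 higher and 4 lower, 5 of them shared with those called without the block. The calls of JGI 533488, JGI 535794, JGI 570723 and JGI 579974 were lost under it (adjusted p = 0.0101, 0.0102, 0.0162 and 0.0192). Calls were gained under it for JGI 350895, JGI 482848 and JGI 555242. Both areas came from the same plates, but it is not stated that equal numbers share them, and the deviations of equally numbered libraries correlated at 0.195 across genes. The 2 libraries per area limit the precision of every value.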

Other observations

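The authors' mean scaled read counts for SIO imply reads of a further SIO library, which has no column of its own in the values used here. In RPM (reads scaled to the total of recovered reads), it lay from the mean of the SIO libraries towards SII for 26 of the 54 genes and for 8 of the 9 called ones. A gap of any size was counted. These shares were not computed over all genes tested or all genes called, so they cannot be read as particular to these genes. The 9 genes were called from the same SIO libraries, so their count is not independent of the calls. Tom70 (JGI 573427) was at 227 RPM in the further library, beside 228 in SIO and 54.1 in SII. The porin JGI 579974 was at 369 RPM, beside 318 in SIO and 680 in SII, and Tim9 (JGI 545744) at 41.5 RPM, beside 35.3 in SIO and 129 in SII.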
